A study of Mus musculus with 64 samples.

Results

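Ppp1r1b, Adora2a, Rgs9, Gpr6, Pde10a and Rasd2 are marker genes of the striatum, a brain region that was not sampled here. Their expression is described in bulk RNA sequencing of the mouse hypothalamus and prefrontal cortex (PFC, called frontal cortex in the sample labels). The 6 genes are the rows of the count table with these symbols, out of 55401 genes in the table, and all 6 were among the 18971 genes that passed the filter on low counts. They were chosen on the readout itself, because striatal genes were higher as a set after psilocybin than after saline in the hypothalamus at 4 weeks. The values of that comparison are therefore given below as a description, without a test. The tissue came from 32 male C57BL/6J mice, 10 weeks old, chow-fed and group-housed, injected intraperitoneally with psilocybin (3 mg/kg, 1 dose) or with isotonic saline, the vehicle. They were killed 3 h or 4 weeks later, and each mouse gave a hypothalamus, dissected whole, and a PFC sample. The design has 8 groups of 8 libraries. 1 library of the hypothalamus after saline at 3 h and 1 of the PFC after psilocybin at 4 weeks held almost no reads (211111 and 200066 counts) and were left out. This left 62 libraries with 7 or 8 in each group.

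The striatum consists mainly of projection neurons that receive glutamate from the cortex and thalamus and dopamine from the midbrain. Dopamine and adenosine receptors on these cells raise or lower cyclic AMP, which acts through protein kinase A, and the 6 genes encode parts of this signalling. The striatum lies beneath the frontal cortex. Adora2a encodes an adenosine receptor coupled to the stimulatory G protein and Gpr6 an orphan receptor coupled to the same protein, both found in neurons of the indirect pathway. Rgs9 encodes a protein that shortens signalling through inhibitory G proteins, and Rasd2 encodes Rhes, a small GTP-binding protein. Pde10a encodes a phosphodiesterase that breaks down cyclic AMP and cyclic GMP, and Ppp1r1b encodes DARPP-32, which inhibits protein phosphatase 1 once protein kinase A has phosphorylated it.

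The genes lie on 4 chromosomes of GRCm38. Ppp1r1b (ENSMUSG00000061718.12) is at chr11:98348404-98357796 on the plus strand, and Rgs9 (ENSMUSG00000020599.13) is on the minus strand of the same chromosome at chr11:109225355-109298129. Adora2a (ENSMUSG00000020178.6) is at chr10:75316877-75334784 on the plus strand and Gpr6 (ENSMUSG00000046922.7) at chr10:41069977-41072285 on the minus strand. Pde10a (ENSMUSG00000023868.17) spans chr17:8525372-8981671 and Rasd2 (ENSMUSG00000034472.13) chr8:75213944-75222371, both on the plus strand. Ppp1r1b overlaps 1700003D09Rik, and Pde10a overlaps Gm15426, Gm15425 and Gm17087, all on the opposite strand. The libraries were made with a stranded protocol, but the strand setting of the counting was not given in the sources used here. Whether reads of these partners were counted with those of the 2 genes is therefore not known.

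The 250 bases before the RefSeq transcription start were read for the 4 genes with an entry in the RefSeq promoter table (GRCm38.p6). Ppp1r1b and Adora2a had none, and Pde10a had 2 start sites. The 3 sequences shown belong to Gpr6, Rgs9 and Rasd2, the genes that passed a test of the difference between cages in the PFC, each written 5' to 3' on the strand of its gene. Capitals mark a cyclic AMP response element (CRE).
Gpr6: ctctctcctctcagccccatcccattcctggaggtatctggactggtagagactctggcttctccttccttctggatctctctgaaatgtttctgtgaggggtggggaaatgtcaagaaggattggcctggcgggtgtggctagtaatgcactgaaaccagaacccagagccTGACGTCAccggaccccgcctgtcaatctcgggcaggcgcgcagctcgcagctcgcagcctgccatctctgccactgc
Rgs9: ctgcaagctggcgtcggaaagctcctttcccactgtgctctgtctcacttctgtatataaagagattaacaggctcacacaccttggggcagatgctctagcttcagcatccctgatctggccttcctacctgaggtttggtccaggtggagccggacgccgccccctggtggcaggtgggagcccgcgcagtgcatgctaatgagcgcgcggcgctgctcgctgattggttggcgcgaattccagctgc
Rasd2: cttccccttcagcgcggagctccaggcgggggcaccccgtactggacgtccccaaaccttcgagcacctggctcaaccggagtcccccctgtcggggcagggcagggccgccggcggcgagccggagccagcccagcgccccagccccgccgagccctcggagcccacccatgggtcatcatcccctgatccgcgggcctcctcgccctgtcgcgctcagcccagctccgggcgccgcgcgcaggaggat
The sequences lie at chr10:41072291-41072540 (minus strand, 58.4% G and C) for Gpr6, chr11:109298182-109298431 (minus strand, 59.6%) for Rgs9 and chr8:75213694-75213943 (plus strand, 75.2%) for Rasd2. Both strands were searched for TGACGTCA (the CRE), its shorter form TGACG, which every CRE contains, GGGCGG (a GC box) and TATAAA. The CRE was found at position -78 before the start of Gpr6 and in none of the other 4 windows. It occurs in 1.55% of the 32851 windows of the same length in the table. Rgs9 held TATAAA at -195 and a GC box at -91 on the opposite strand, and the window at the upstream start of Pde10a held a GC box at -146. TATAAA occurs in 12.4%, GGGCGG in 32.7% and TGACG in 17.8% of all windows. A match describes the letters only.

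The libraries held 8061033 to 70361839 counts (median 18287978.5). Counts per library were lowest for Gpr6 (2 to 358) and Adora2a (5 to 1702). They lay between 88 and 2790 for Rgs9, 237 and 8607 for Ppp1r1b, 330 and 7183 for Pde10a and 531 and 5154 for Rasd2. Levels are given as CPM (counts per 1000000 counts of the library, scaled with TMM factors). The tissue labels were checked with marker lists at 3 h. In edgeR's quasi-likelihood test, 11 of 12 genes of cortical excitatory neurons were higher in the PFC (Lamp5, log2 difference 4.45), and 15 of 15 tested genes of hypothalamic neurons were higher in the hypothalamus (Otp, log2 difference -8.65 for the PFC minus the hypothalamus). A replicate number is the number of the cage, so that within a region libraries of the same number came from different mice of 1 cage. Cages 1 to 4 were extracted in pools A (hypothalamus) and C (PFC), and cages 5 to 8 in pools B and D.

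Compared per kilobase of gene length, Ppp1r1b and Rasd2 were the members with the highest median levels. In the PFC the median level over 31 libraries was 30.3 CPM per kb for Ppp1r1b, 25.1 for Rasd2, 6.98 for Pde10a, 2.18 for Rgs9, 0.954 for Adora2a and 0.496 for Gpr6. In the hypothalamus, also over 31 libraries, it was 23.5 CPM per kb for Rasd2, 10.5 for Ppp1r1b, 5.62 for Rgs9, 5.47 for Pde10a, 2.24 for Gpr6 and 0.803 for Adora2a. Rgs9 and Gpr6 thus stood higher in the order of the hypothalamus.

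Among the 8 groups, the median level of Ppp1r1b was highest in the PFC after psilocybin at 3 h (95.1 CPM) and lowest in the hypothalamus after saline at 4 weeks (28.2 CPM), with all 4 PFC groups (80.6 to 95.1 CPM) above all 4 hypothalamus groups (28.2 to 43.3 CPM). The order was the other way for Rgs9, with medians of 33.7 to 45.0 CPM in the hypothalamus groups and 11.3 to 16.1 CPM in the PFC groups, and for Gpr6, with 3.30 to 5.25 CPM and 0.732 to 1.57 CPM. The medians of Rasd2 covered a narrow range, from 73.9 CPM in the hypothalamus after saline at 3 h to 84.7 CPM in the PFC after psilocybin at 3 h. Those of Pde10a ran from 65.4 CPM in the hypothalamus to 126 CPM in the PFC, both after psilocybin at 4 weeks. For this gene the 3 highest medians were all of PFC groups and the 3 lowest all of hypothalamus groups. Adora2a had medians of 2.48 to 3.13 CPM in 6 groups, 7.35 CPM in the hypothalamus after saline at 3 h and 1.48 CPM in the hypothalamus after psilocybin at 3 h. For each gene, groups next to each other in the order of the medians overlapped in the range of their libraries.

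Ppp1r1b was higher in the PFC than in the hypothalamus at 3 h, and Rgs9 and Gpr6 were lower. The log2 difference (PFC minus hypothalamus, mean of the psilocybin and saline groups) was 1.52 (SE 0.243, adjusted p = 2.23e-07) for Ppp1r1b, -1.0 (SE 0.283, adjusted p = 0.00169) for Rgs9 and -1.29 (SE 0.409, adjusted p = 0.00469) for Gpr6. Adora2a (0.39, SE 0.572, adjusted p = 0.561), Pde10a (0.23, SE 0.235, adjusted p = 0.39) and Rasd2 (0.21, SE 0.120, adjusted p = 0.125) did not pass. The 3 of 6 called compare with 66.9% of all genes tested, so a call between these regions was common. In the hypothalamus, the highest library had 4.98 times the Gpr6 level of the lowest, and in the PFC 146 times. The Gpr6 difference was -2.15 with voom and quality weights, -1.91 without cage 6 and -1.80 to -1.17 with single libraries left out. Hypothalamic tissue was extracted in pools A and B and PFC in pools C and D, so region and extraction cannot be told apart here. Nor can fewer cells of a type and less RNA per cell be told apart in bulk samples. Of 22 other genes enriched in striatal projection neurons, 8 were higher and 8 lower in the PFC, among them Foxp1, a transcription factor (log2 difference 1.14), Chrm4, a muscarinic receptor (1.93), and Drd3, a dopamine receptor (-6.14). Of 30 genes of dopamine, adenosine and cyclic AMP signalling, 8 of which are also on the list of 22, 15 were higher and 7 lower. They included Arpp19 (2.44) and Arpp21 (2.55), both phosphoproteins regulated by cyclic AMP, and Adora1, an adenosine receptor coupled to inhibitory G proteins (0.83).

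**Figure D1:**
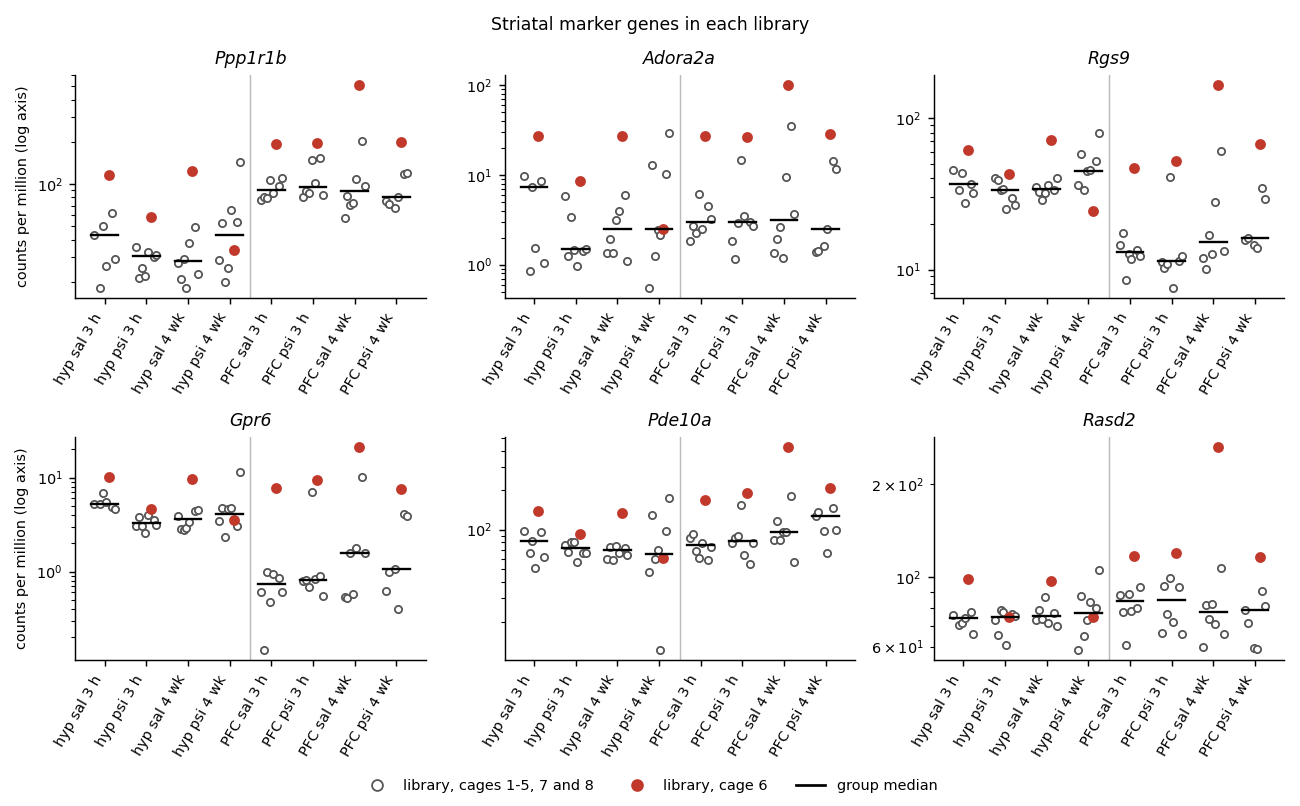
Level of each of the 6 genes (CPM, log scale) in the 62 libraries, 1 panel for each gene and 1 column for each of the 8 groups. Points are libraries, those of cage 6 in red, and lines are group medians. In the PFC the cage 6 library is the highest of its group in all 6 panels (Adora2a 26.3 to 101 CPM).

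No member passed the test between psilocybin and saline in any of the comparisons not used to choose the genes: the hypothalamus at 3 h and the PFC at 3 h and 4 weeks. In 17 of these 18 comparisons of a gene, the libraries of the 2 groups overlapped. In the hypothalamus at 3 h, 0 of 6 genes were called by edgeR, against 0% of all genes (337 at an unadjusted p under 0.05). DESeq2 and voom with quality weights also called 0 of all genes there. All 6 log2 differences (psilocybin minus saline) were below 0, with a median of -0.39 against -0.00081 over all genes tested.

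Adora2a ranged from 0.963 to 8.48 CPM (median 1.48) after psilocybin and from 0.853 to 27.3 CPM (median 7.35) after saline in the hypothalamus at 3 h, a log2 difference of -1.26 (SE 0.817, edgeR adjusted p = 1). Of the 7 saline libraries, 4 lay between 7.35 and 27.3 CPM and the other 3 at 0.853, 1.03 and 1.54 CPM. After psilocybin 3 libraries lay at 3.36, 5.75 and 8.48 CPM and the other 5 between 0.963 and 1.51 CPM, so both groups were widely spread. Gpr6 was the gene whose groups did not overlap, with 2.58 to 4.59 CPM (median 3.30) after psilocybin and 4.61 to 10.2 CPM (median 5.25) after saline. Every psilocybin library lay below every saline library in 0.0474% of all genes tested. The log2 difference of Gpr6 was -0.80 (SE 0.551, edgeR adjusted p = 1). In a fit of the hypothalamus libraries at 3 h alone it was -0.80 with an SE of 0.162 and an adjusted p of 0.766. Ppp1r1b ranged from 21.3 to 58.1 CPM (median 30.5) after psilocybin and from 18.1 to 116 CPM (median 43.0) after saline (log2 difference -0.54, adjusted p = 1). The log2 differences of Rgs9, Pde10a and Rasd2 were -0.23, -0.19 and -0.06. Leaving out single libraries gave -1.64 to -0.75 for Adora2a and -0.68 to -0.31 for Ppp1r1b. With voom and quality weights the differences of these 2 genes were -0.38 and -0.21. Of the 22 other striatal genes, 0 were called and 2 had a log2 difference above 0 (median -0.27). The median was -0.04 for the 30 signalling genes and 0.18 for 12 genes of thalamic relay neurons, all 12 of which were above 0, with 0 called in either list.

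In the PFC at 3 h the 6 log2 differences were above 0 (median 0.24, against -0.0074 over all genes), and 0 of 6 were called, against 0.0105% of all genes (2 genes, or 1 to 11 with 1 library left out; 1371 at an unadjusted p under 0.05). Gpr6 had the smallest p, with 0.553 to 9.49 CPM (median 0.822) after psilocybin and 0.146 to 7.80 CPM (median 0.732) after saline. Its log2 difference was 1.13 (SE 0.606, edgeR adjusted p = 0.723). After psilocybin the libraries from cages 4 and 6 had 7.04 and 9.49 CPM and the other 6 at most 0.886 CPM. Adora2a lay between 1.15 and 26.3 CPM (median 2.96) after psilocybin and between 1.85 and 27.2 CPM (median 2.98) after saline, with a log2 difference of 0.39 (SE 0.797, adjusted p = 0.96). Without the psilocybin library of cage 4 the difference was 0.21 for Gpr6 and -0.50 for Adora2a, and that of Rgs9 turned from 0.25 to -0.21. Without the saline library of cage 6 that of Gpr6 was 1.86 (edgeR adjusted p = 0.332), and with voom and quality weights it was 0.11. Of the 22 other striatal genes, 15 were above 0 (median 0.13), and of the 8 oligodendrocyte genes all 8 (median 0.21), with 0 called in either list. Voom with quality weights called 1232 genes in this comparison and DESeq2 9, in both cases 0 of the 6.

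In the PFC at 4 weeks all 6 log2 differences were below 0 (median -0.46, against -0.0067 over all genes), and 0 of 6 were called, against 0% of all genes (456 at an unadjusted p under 0.05). DESeq2 called 19 genes, none of them a member. The mice of this comparison are those of the hypothalamus comparison on which the genes were chosen. Adora2a lay between 1.38 and 28.6 CPM (median 2.50) after psilocybin and between 1.19 and 101 CPM (median 3.13) after saline, a log2 difference of -1.02 (SE 0.788, edgeR adjusted p = 1). Rasd2 had the smallest p (log2 difference -0.34, SE 0.172, edgeR adjusted p = 1), with 59.1 to 117 CPM (median 78.9) after psilocybin and 59.6 to 263 CPM (median 77.7) after saline. The direction rested on the saline library of cage 6. Without it the log2 differences were 0.0083 for Ppp1r1b, -0.010 for Adora2a, 0.23 for Rgs9, 0.037 for Gpr6, 0.30 for Pde10a and 0.0084 for Rasd2. All 22 other striatal genes were below 0 in the fit with that library (median -0.34), as were 11 of 15 genes of hypothalamic neurons (median -0.64), with 0 called in either list.

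The difference between the regions in the response at 3 h (PFC minus hypothalamus), built from the same libraries as the 2 comparisons at 3 h, was above 0 for all 6 genes (median 0.61). It passed for 0 of 6, against 0% of all genes (528 at an unadjusted p under 0.05). It was 1.93 for Gpr6 (SE 0.819, edgeR adjusted p = 1) and 1.65 for Adora2a (SE 1.14, adjusted p = 1). Without the PFC psilocybin library of cage 4 these were 1.00 and 0.76, and with voom 0.81 and -0.030. DESeq2 and voom called 0 and 8 genes in all. A response that differed between the regions was thus not detected for these genes with 7 or 8 libraries in a group. The edgeR fit did not take into account that the 2 regions came from the same mice, whereas the voom fit included a correlation within mouse.

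**Figure D2:**
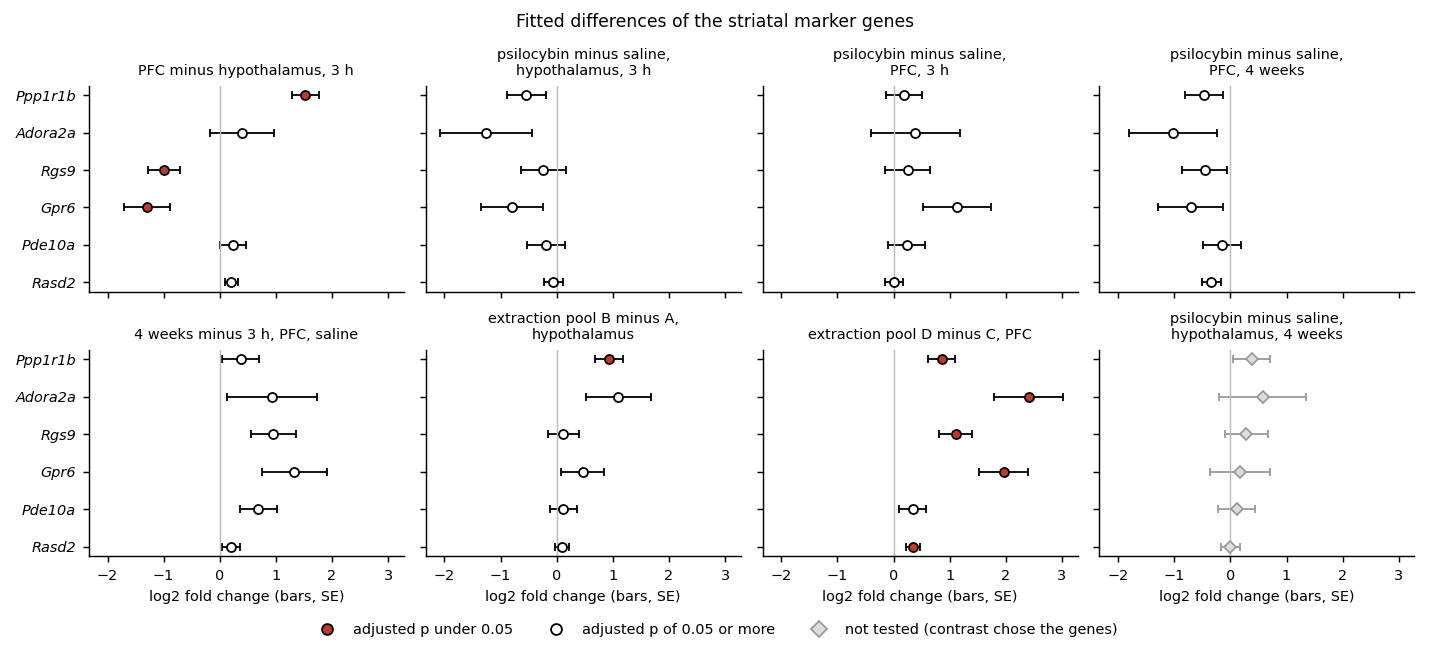
Log2 differences of the 6 genes in each comparison except the response difference between regions at 3 h, with bars of 1 SE from the edgeR fit. Red points passed the test at an adjusted p under 0.05, white points did not, and grey diamonds mark the hypothalamus at 4 weeks, on which the genes were chosen and which has no test. The psilocybin comparisons lie on both sides of 0 (medians -0.39, 0.24 and -0.46), and the pool comparison in the PFC, with libraries as the unit, has the most calls, 5 of 6.

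In the hypothalamus at 4 weeks, the comparison behind the choice of the genes, the log2 differences (psilocybin minus saline) were 0.58 for Adora2a (SE 0.771), 0.38 for Ppp1r1b (SE 0.333), 0.28 for Rgs9 (SE 0.382), 0.17 for Gpr6 (SE 0.533), 0.11 for Pde10a (SE 0.327) and 0.00055 for Rasd2 (SE 0.166). The libraries of the 2 groups overlapped for each gene. Adora2a had 0.551 to 29.6 CPM (median 2.48) after psilocybin and 1.11 to 27.4 CPM (median 2.51) after saline. Ppp1r1b had 20.1 to 143 CPM (median 43.3) after psilocybin and 18.2 to 124 CPM (median 28.2) after saline. The highest library was that of cage 8 after psilocybin and that of cage 6 after saline. After psilocybin, Adora2a was also well above the group median in cage 2 (12.7 CPM) and cage 7 (10.2 CPM). The median log2 difference of the 6 genes was 0.23. Without the psilocybin library of cage 8 it was -0.053, and without the saline library of cage 6 it was 0.43. Of the 22 other striatal genes, 19 were above 0 (median 0.08). So were 13 of 15 genes of hypothalamic neurons (median 0.17) and 8 of 9 wound and immune genes (median 0.14), whereas 1 of 12 thalamic genes (median -0.24) and 2 of 9 choroid plexus genes (median -0.37) were. Their part in the values of the 6 genes was not tested. The psilocybin library of cage 5 stood apart, with a sum of 3137 CPM over the genes of hypothalamic neurons, against 518 to 1073 CPM in the other hypothalamus libraries.

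After saline, the PFC at 4 weeks was compared with the PFC at 3 h, which shares its libraries with the 2 psilocybin comparisons of the PFC. The mice killed at 4 weeks were also older, so age and time since the injection cannot be told apart. All 6 genes had a log2 difference above 0 (4 weeks minus 3 h, median 0.81), and 0 of 6 were called, against 4.72% of all genes (896 genes, 480 without the 3 h library of cage 4, 1378 without that of cage 5, and 1571 without the hypothalamus psilocybin library of cage 5 at 4 weeks). The values were 1.33 for Gpr6 (SE 0.580, edgeR adjusted p = 0.197), 0.95 for Rgs9 (SE 0.400, adjusted p = 0.174), 0.93 for Adora2a (SE 0.794, adjusted p = 0.587), 0.68 for Pde10a (SE 0.328, adjusted p = 0.254), 0.37 for Ppp1r1b and 0.20 for Rasd2. Without the 4-week library of cage 6 Gpr6 was at 0.61 (adjusted p = 0.642), Rgs9 at 0.31, Pde10a at 0.25 and Adora2a at 0.0081, and the signs of Ppp1r1b (-0.075) and Rasd2 (-0.13) turned. Without the 3 h library of cage 6, Gpr6 passed (2.16, adjusted p = 0.0328). Of the other striatal genes 21 of 22 were above 0 (median 0.47), with 0 called. Of 15 genes of hypothalamic neurons 12 were above 0 (median 0.81) and 3 were called, all higher at 4 weeks. Their part in the result was not tested. Among the 30 signalling genes 2 were called, both lower at 4 weeks: Rasd1, the closest relative of Rasd2 (-1.16), and Gpr3, a relative of Gpr6 (-0.63).

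In the PFC, 5 of 6 genes were higher in pool D (cages 5 to 8) than in pool C (cages 1 to 4) with libraries as the unit, against 24.9% of all genes called. With the mean of each cage as the unit (4 cages against 4, limma, a test chosen after seeing the data), 0 of 6 passed, against 14.2% of all genes, and the limma adjusted p ran from 0.0873 for Adora2a to 0.751 for Pde10a. The log2 differences over cage means were 1.92 for Adora2a, 1.40 for Gpr6, 0.82 for Rgs9, 0.74 for Ppp1r1b, 0.28 for Rasd2 and 0.17 for Pde10a. The p-values that follow are those over libraries, of which 4 or fewer in a region share a cage. Adora2a had a median of 6.98 CPM in pool D (2.50 to 101) and 1.85 CPM in pool C (1.15 to 14.6), a log2 difference of 2.41 (SE 0.617, edgeR adjusted p = 0.00347). Gpr6 differed by 1.96 (SE 0.442, adjusted p = 0.00103), Rgs9 by 1.11 (adjusted p = 0.00482), Ppp1r1b by 0.86 (adjusted p = 0.00698) and Rasd2 by 0.34 (adjusted p = 0.0296), while Pde10a, at 0.34 (SE 0.237), did not pass (adjusted p = 0.292). Pools also differed in other cells. Of the other striatal genes 13 of 22 were higher in pool D and 1 lower (Foxp1, -0.23), led by Syndig1l, a synaptic membrane protein (2.29), Drd3 (3.21) and Ido1, an enzyme of tryptophan breakdown (1.84). All 8 oligodendrocyte, 7 astrocyte and 7 microglial genes were higher in pool D, as were 6 of 9 tested wound and immune genes, and 5 of 12 genes of cortical excitatory neurons were lower (among them Neurod6 -0.50 and Tbr1 -0.32). Their part in the pool difference was not tested. Without the 8 libraries of cage 6, a setting chosen after seeing the data, 0 of 6 genes passed between pools D and C (adjusted p from 0.076 to 0.674), while 2773 of 19064 genes still did. In single removals Rasd2 was lost with each of 7 PFC libraries, to an adjusted p of 0.134 without the saline library of cage 6 at 4 weeks.

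In the hypothalamus, 1 of 6 genes differed between pools, against 17.4% of all genes: Ppp1r1b was higher in pool B, with a median of 43.5 CPM (22.6 to 143) against 25.2 CPM in pool A (18.1 to 52.6). Its log2 difference was 0.93 (SE 0.243, edgeR adjusted p = 0.00733), and 0.63 without cage 6 (adjusted p = 0.0246). Over cage means it was 0.80 (SE 0.202) and did not pass (limma adjusted p = 0.0631, against 3.63% of all genes called). The share of 1 in 6 is near that of all genes, and the libraries include those at 4 weeks on which the genes were chosen. Adora2a had a log2 difference of 1.10 (SE 0.575, adjusted p = 0.174). None of the 22 other striatal genes was called there, though 21 were above 0. Genes of other cells were called, with 5 of 7 microglial, 3 of 9 wound and immune and 2 of 7 astrocyte genes higher in pool B and, of 15 hypothalamic genes, 5 higher and 2 lower. Their part in the difference of Ppp1r1b was not tested. In both regions each cage belongs to 1 pool, so that pool and cages 5 to 8 cannot be told apart from the labels.

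Cage 6 stood out in the PFC. Its library was the highest of its group in all 4 PFC groups for all 6 genes, which held for 0.532% of all genes tested. Adora2a had 27.2 CPM in cage 6 after saline at 3 h, 26.3 CPM after psilocybin at 3 h, 101 CPM after saline at 4 weeks and 28.6 CPM after psilocybin at 4 weeks, against 1.15 to 34.7 CPM (median 2.69) in the other 27 PFC libraries. These are 4 different mice, 1 from each treatment and time, and the ratio of the medians was 10.4. Gpr6 had 7.50 to 21.2 CPM in the cage 6 libraries and 0.146 to 10.1 CPM in the others (ratio of medians 10.3). Rgs9 had 46.6 to 166 against 7.57 to 60.9 CPM (4.46), Pde10a 168 to 426 against 54.5 to 181 CPM (2.32) and Ppp1r1b 192 to 511 against 57.4 to 201 CPM (2.31). Rasd2 had 117 to 263 against 59.1 to 108 CPM (1.52), with no overlap. For the other 5 genes, 1 library overlapped the cage 6 range, that of cage 7 after saline at 4 weeks.

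In an edgeR test of cage within pool for the PFC, chosen after seeing the data, 3 of 6 genes passed, against 0.332% of all genes (63 genes). They were Rasd2 (adjusted p = 0.00182), Gpr6 (adjusted p = 0.00215) and Rgs9 (adjusted p = 0.00222). Pde10a (adjusted p = 0.093), Adora2a (0.278) and Ppp1r1b (0.455) did not pass. Relative to the other 3 cages of pool D, cage 6 was higher by a log2 difference of 2.71 for Gpr6 (SE 0.420), 2.65 for Adora2a (SE 0.630), 2.04 for Rgs9 (SE 0.297), 1.49 for Pde10a (SE 0.276), 1.27 for Ppp1r1b (SE 0.301) and 0.94 for Rasd2 (SE 0.135), values given without a test since the cage was picked for its level. Without cage 6, 0 of 6 genes passed and 3 of all 19064 tested, and with the PFC libraries alone in the fit 0 of 6 and 0 of all 17773. Without the saline library of cage 6 at 4 weeks 1 of 6 passed (Gpr6) and 29 of all genes, and without that of cage 7 in the same group 4 of 6 passed and 141 of all genes.

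**Figure D3:**
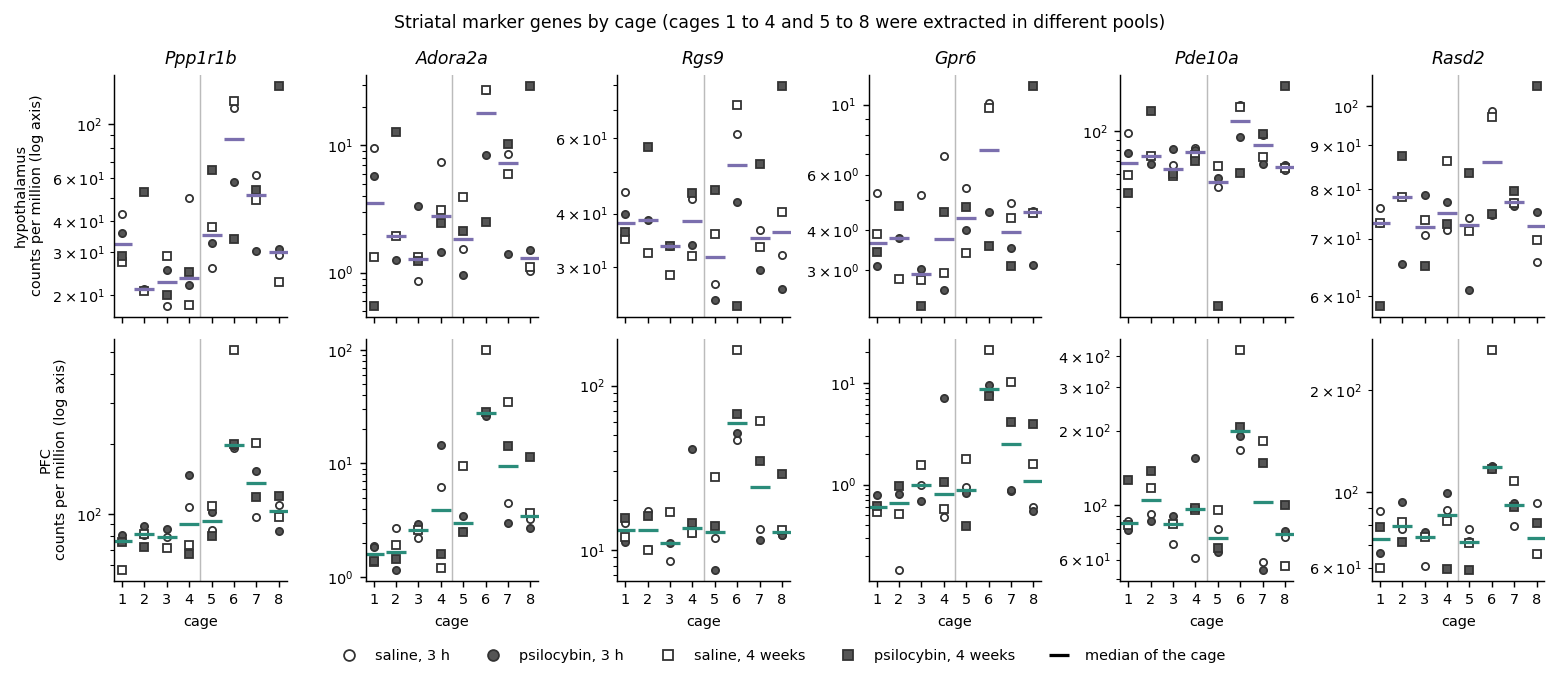
Level of each of the 6 genes (CPM, log axis) by cage, in the hypothalamus (upper row) and the PFC (lower row). Symbols are libraries by treatment and time, horizontal dashes are the median of a cage, and the vertical line divides the extraction pools. In the PFC the dash of cage 6 is the highest in each panel (Rasd2 117 to 263 CPM against 59.1 to 108 CPM in the other cages), and in the hypothalamus the libraries of cage 6 overlap those of other cages.

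In the hypothalamus, the cage 6 library was the highest of its group in 3 of 4 groups for 5 genes and in 2 of 4 for Rasd2. In all 4 groups this held for none of the 6 and for 0.0211% of all genes. The exception for all 6 was psilocybin at 4 weeks, where the cage 8 library was the highest for all 6 genes and cage 6 had 2.50 CPM of Adora2a. For Rasd2 the libraries of cages 3, 4, 7 and 8 (75.2 to 78.6 CPM) were also above that of cage 6 (74.5 CPM) after psilocybin at 3 h. Adora2a in the other 3 cage 6 libraries was 8.48, 27.3 and 27.4 CPM. The test of cage within pool called 0 of 6 genes in the hypothalamus and 0% of all genes (1771 at an unadjusted p under 0.05), and adjusted p lay between 0.595 for Adora2a and 1. Its libraries include those at 4 weeks on which the genes were chosen. Without the psilocybin library of cage 5 at 4 weeks it called 30 of all genes and again 0 of 6. DESeq2 was not run for the cage tests.

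Other cell-type lists were summed in the same PFC libraries. The 6 genes together had 559 to 1488 CPM in the cage 6 libraries and 214 to 596 CPM in the other 27. The 22 other striatal genes summed to 1941 to 4515 CPM against 1134 to 2278 CPM, and the ratio of the medians was 2.28 for the 6 genes and 1.70 for the 22. The 12 genes of cortical excitatory neurons went the other way, with 1857 to 2013 CPM in cage 6 and 2066 to 2737 CPM in the other libraries, without overlap. Oligodendrocyte genes summed to 4287 to 6841 CPM against 2346 to 6137 CPM and wound and immune genes to 184 to 357 CPM against 93.6 to 382 CPM, with ratios of the medians of 1.28 and 1.90. Genes of the choroid plexus, the tissue that makes cerebrospinal fluid, summed to 12.9 to 43.1 CPM against 5.55 to 57.5 CPM (ratio 2.25), and hypothalamic genes to 8.44 to 18.6 CPM against 3.28 to 29.7 CPM (ratio 1.89). The ranges of these 4 lists overlapped, but their medians were higher in cage 6 as well. No gene of these lists was at 0 in all 4 cage 6 libraries. In the remaining lists the ratio ran from 0.976 for endothelial genes to 1.29 for septal and preoptic genes. Of the latter, Hmx2 and Hmx3 were at 0 in all 4 cage 6 libraries. What part a different mixture of tissue in the dissected sample had in the level of the 6 genes was not tested.

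**Figure D4:**
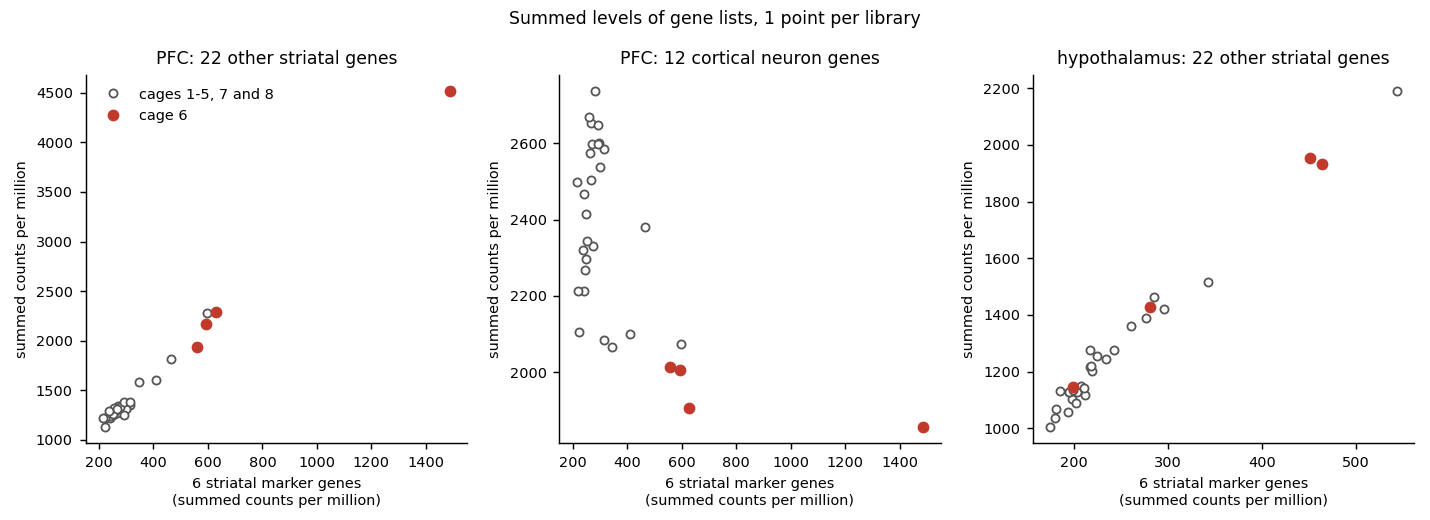
Summed level (CPM) of the 22 other striatal genes (left, PFC and right, hypothalamus) and of the 12 genes of cortical excitatory neurons (middle, PFC) against the summed level of the 6 genes (CPM). Points are libraries, those of cage 6 in red. In the PFC the cage 6 libraries lie at the right of both panels, high in the other striatal genes (1941 to 4515 CPM) and lowest in the cortical genes (1857 to 2013 CPM).

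The spread within groups was wider than in the median gene for all 6 genes in the PFC and for 5 of 6 in the hypothalamus. With group and pool removed, the SD of the log2 CPM in the PFC was 1.44 for Gpr6, 1.43 for Adora2a, 0.961 for Rgs9, 0.658 for Pde10a, 0.562 for Ppp1r1b and 0.419 for Rasd2. The median of the 6 was 0.809, against 0.266 over all genes tested, and without cage 6 it was 0.548 against 0.269. Adora2a was more variable than 99.5% of all genes in both regions. The hypothalamus values are a description, since the libraries there include those at 4 weeks on which the genes were chosen. In the hypothalamus the SD was 1.57 for Adora2a, 0.696 for Ppp1r1b, 0.682 for Pde10a, 0.473 for Gpr6, 0.415 for Rgs9 and 0.189 for Rasd2, which was more variable than 30.3% of genes. The median of the 6 was 0.578 there, against 0.268 over all genes. Without the psilocybin library of cage 5 at 4 weeks, which had the lowest Pde10a level of all (12.2 CPM), these medians were 0.471 and 0.184. Rasd2, at 0.192, was then above the median gene in the hypothalamus. In the PFC without cage 6 it was below the median gene (0.249 against 0.269).

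The 6 genes varied together from library to library. In the PFC, all 15 pairs correlated over 31 libraries after group and pool were removed, with Pearson's r from 0.719 to 0.936 and Spearman's rho from 0.66 to 0.925 (two-sided permutation tests, highest adjusted p = 1e-05 for r, the smallest that the permutations can give, and 7e-05 for rho). These permutation tests took no account of cages, although libraries of a cage share sources. Some of the PFC libraries also come from the mice whose hypothalamus was used to choose the genes. The p-values are therefore given as a description only. Without the 2 libraries farthest from the median of the first gene, r was 0.653 to 0.9. Without cage 6 it was 0.574 to 0.891. Within pool C it was 0.32 to 0.873 and within pool D 0.834 to 0.972. In the hypothalamus, where the libraries include those on which the genes were chosen, r was 0.462 to 0.87 as a description. It fell to 0.185 to 0.828 without the 2 farthest libraries and was 0.185 to 0.805 within pool A and 0.489 to 0.925 within pool B.

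Levels of the other 5 genes rose with that of Adora2a in both regions. Across libraries the slope for Ppp1r1b was 4.28 CPM per CPM of Adora2a in the PFC (SE 0.150) and 3.69 in the hypothalamus (SE 0.223). It was 3.52 and 3.48 for Pde10a (SE 0.225 and 0.314), 1.57 and 1.47 for Rgs9 (SE 0.0408 and 0.130) and 0.225 and 0.240 for Gpr6 (SE 0.0106 and 0.0249). For Rasd2 it was 1.81 CPM in the PFC (SE 0.108) and 1.08 in the hypothalamus (SE 0.129). No difference between slopes was tested. Without the PFC library highest in Adora2a, the slope in the PFC was 0.300 for Gpr6 and 1.43 for Rasd2. The fitted line met an Adora2a level of 0 at 74.7 CPM of Ppp1r1b in the PFC and 21.2 in the hypothalamus, 9.55 and 30.8 CPM of Rgs9, 0.550 and 3.14 CPM of Gpr6, 76.4 and 57.6 CPM of Pde10a, and 69.2 and 69.9 CPM of Rasd2. The slopes and levels are a description, since libraries of a cage and pool share sources.

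**Figure D5:**
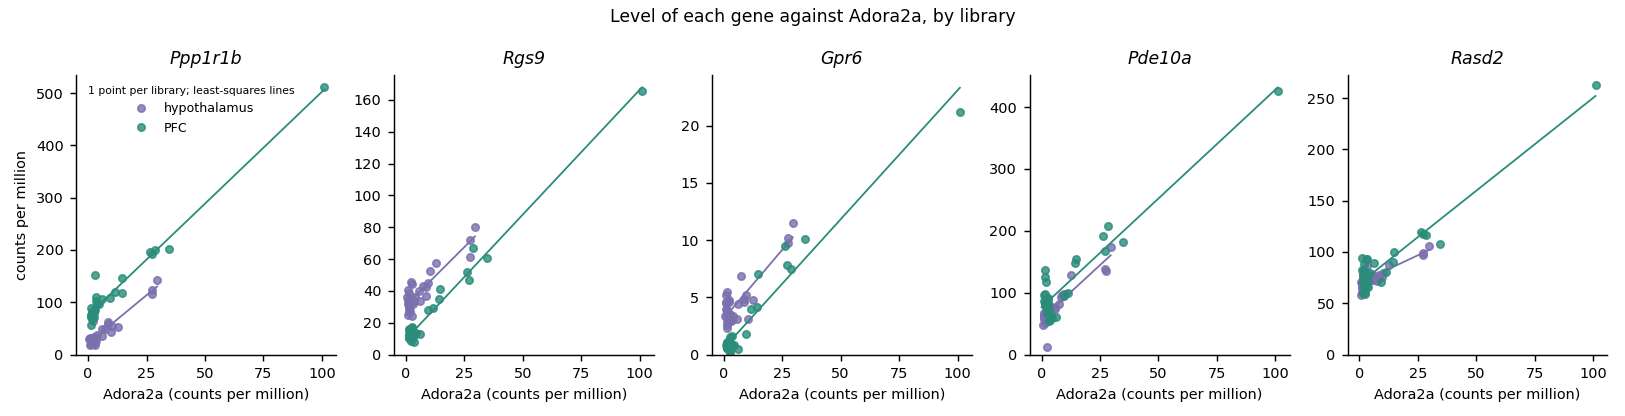
Level of 5 genes (CPM) against that of Adora2a (CPM) in each library, coloured by region, with least-squares lines. The lines of the regions run nearly parallel for Rgs9 (slopes 1.57 and 1.47) and start from different levels (9.55 CPM in the PFC and 30.8 CPM in the hypothalamus).

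The levels of each gene were also compared between the regions of a mouse. Over the 30 mice with both libraries, the level in the hypothalamus was set against that in the PFC, as a description, since the hypothalamus libraries include those on which the genes were chosen. Pearson's r was 0.575 and Spearman's rho 0.624 for Adora2a, and across the 6 genes r was 0.363 to 0.575 and rho 0.262 to 0.624. Without the 2 mice farthest from the median r was 0.251 to 0.602, and without cage 6 it was 0.189 to 0.481. Within cages 1 to 4 it was -0.0703 to 0.423 and within cages 5 to 8 0.462 to 0.778.

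Of all genes tested, the 10 whose residual levels correlated most with the mean of the 6 were, in the PFC, Lrrc10b (r = 0.969, n = 31 libraries), Drd2, a dopamine receptor of the indirect pathway (0.965), Syndig1l (0.954), Ankk1, which neighbours Drd2 (0.946), Drd1, the dopamine receptor of the direct pathway (0.932), Gng7, a G protein subunit (0.929), Rxrg, a retinoid receptor (0.925), Pde1b, a phosphodiesterase (0.921), Rasgrp2 (0.921) and Cd4 (0.916). In the hypothalamus the 10 included Drd1 (0.978), Arpp21 (0.960), Gng7 (0.960), Kcnj4, a potassium channel (0.944), Ankrd63 (0.932), Kcnh3, a potassium channel (0.930), Akap5, an anchor of protein kinase A (0.920), Egr3, a transcription factor (0.916), and 2010300C02Rik (0.906). Of these, 6 of 10 in the PFC and 3 of 10 in the hypothalamus are on the list of 22. The median r was 0.844 in the PFC and 0.745 in the hypothalamus for the 22 other striatal genes, 0.288 and 0.489 for the 30 signalling genes, 0.500 and -0.16 for the 8 oligodendrocyte genes, -0.439 and -0.073 for the cortical genes, and 0.0068 and 0.013 for all genes tested. These correlations share libraries and are given without a test. The hypothalamus libraries include those at 4 weeks on which the genes were chosen. Over the 15 hypothalamus libraries at 3 h, the median r was 0.773 for the 22 other striatal genes and 0.0026 for all genes tested. The 10 most correlated genes then included Kcnj4 (0.979), Arpp21 (0.973), Akap5 (0.968) and Drd1 (0.968), and in part differed from those above.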

How the data were processed

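Whole hypothalamus and PFC from 32 mice were analysed by poly-A RNA sequencing (52-bp paired-end reads). The authors made FASTQ files with bcl2fastq 2.20.0, aligned reads to GRCm38 with STAR 2.7.2b and counted them with featureCounts 1.6.2 against GENCODE genes. The library protocol was stranded, but the strand setting of the counting is not given in the sources used here. The deposited table holds whole-number counts for 55401 genes in 64 libraries, without normalization or pooling of samples. Groups, cages and extraction pools were taken from the labels.

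Libraries with at least 1000000 counts were kept (62 of 64). The authors also excluded a sample rich in wound-healing and immune genes. The labels do not say which, so it was kept here. Low genes were removed by filterByExpr with the groups and a minimum count of 10, which kept 18971 genes, and TMM factors were computed. A robust quasi-likelihood fit in edgeR 4.0.16 (R 4.3.3) covered all 8 groups with extraction pool as covariate. Genes with a Benjamini-Hochberg adjusted p under 0.05 over all genes tested were called. Log2 CPM used a prior count of 2, and correlations used the residuals after group and pool were removed, with 100000 permutations in scipy 1.17.1 (numpy 2.4.6, Python 3.11.15). Cage was tested within pool with 6 degrees of freedom, a test chosen after seeing the data, as was limma on the cage means of log2 CPM (group removed) for the pools. The fits were checked on simulated counts with known changes.

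The 6 genes, the gene lists and the tests were chosen with earlier results of these data known. Genes named are the 6 members, from each list described the genes with the smallest p (up to 3) in the comparison at hand, and the 10 genes most like the members in each region. Foxp1 in the pool comparison, and the genes of a list called in small numbers, were named after their values were seen. Some genes that this rule would name are not reported here. Alternatives were DESeq2-type size factors, other filters on low counts, no extraction pool, cage or mouse as a block, all 64 libraries, only the libraries compared, DESeq2 1.42.0, voom with quality weights (limma 3.58.1), each library left out in turn and, chosen after seeing the data, no cage 6 and cage means. Replicate numbers are cage numbers in the labels, so libraries with the same number in a region come from cage mates, and those of both regions with the same treatment and time come from 1 mouse. Over 45 pairs of cage mates in each region, deviations from the group means correlated by 0.0806 (PFC) and 0.0723 (hypothalamus) on average across genes, and by -0.0415 and -0.0236 once pool was removed. Depth limits precision for Gpr6 and Adora2a, the genes with fewest counts, and intervals from the fit cover the spread between libraries.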

Additional observations from a re-analysis of the deposited data

Results flagged for a closer look

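Within groups, 25 extreme values of the 6 genes stood farther from the rest than Dixon's 95% limit allows, over 48 sets of 7 or 8 libraries (6 genes in 8 groups). The limit assumes normally distributed values, for which chance flags about 1 in 20 such sets. It was applied to CPM without logarithms, whose spread is skewed upward, so chance can flag more sets than that. The sets are also not independent, since the genes vary together. The genes were chosen on the hypothalamus at 4 weeks, to which 8 of the 25 values belong, so those 8 are a description only.

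In the PFC, all 13 flagged values came from cage 6. After saline at 4 weeks the library of cage 6 stood apart in all 6 genes, with 511 CPM of Ppp1r1b, 101 CPM of Adora2a, 166 CPM of Rgs9, 21.2 CPM of Gpr6, 426 CPM of Pde10a and 263 CPM of Rasd2. After saline at 3 h it stood apart in 5 genes, with 192 CPM of Ppp1r1b, 27.2 CPM of Adora2a, 46.6 CPM of Rgs9, 7.80 CPM of Gpr6 and 168 CPM of Pde10a. After psilocybin at 4 weeks it had 200.5 CPM of Ppp1r1b and 66.9 CPM of Rgs9.

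In the hypothalamus, 9 of 12 flagged values came from cage 6. After saline at 4 weeks that library had 124 CPM of Ppp1r1b, 27.4 CPM of Adora2a, 71.8 CPM of Rgs9, 9.78 CPM of Gpr6 and 134.5 CPM of Pde10a. After saline at 3 h it had 27.3 CPM of Adora2a, 10.2 CPM of Gpr6 and 98.5 CPM of Rasd2, and after psilocybin at 3 h 58.1 CPM of Ppp1r1b. The other 3 values belonged to the psilocybin library of cage 8 at 4 weeks, with 143 CPM of Ppp1r1b, 29.6 CPM of Adora2a and 11.5 CPM of Gpr6. All 25 were the highest of their group.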

How the results depend on the processing

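The 3 calls between regions and the 0 calls in the psilocybin comparisons held under each setting that kept the genes, but with at least 10 counts in every library Gpr6 and Adora2a are no longer tested. Calls between pools D and C fell from 5 to 3 with at least 10 counts in every library, where fewer genes were tested, and to 0 without cage 6. With cage means in place of libraries (limma) they were 0, and those between pools B and A fell from 1 to 0. Rasd2 was also lost with no filter on low counts (adjusted p = 0.0652) and with only the PFC libraries (adjusted p = 0.0875), which left 4. Calls of the cage test in the PFC (3, of 63 over all genes) fell to 0 (of 3) without cage 6 and to 0 (of 0) with only the PFC libraries, and leaving out single libraries gave 1 to 4. For the changes without cage 6 and with only the PFC libraries, the cause was not tested. Single removals gave 0 to 1 calls for the PFC after saline over time, and the spread of the genes in the hypothalamus went from 0.578 to 0.471 without the psilocybin library of cage 5 at 4 weeks and to 0.492 without cage 6, which took that in the PFC from 0.809 to 0.548. In the pairing check, the cage as replicate block changed no call and turned 1 sign (Rasd2, PFC at 3 h, -0.0047). Cage as a fixed block leaves no pool term, since each cage lies in 1 pool, and with the mouse as replicate block the region comparison kept 3 calls. The median at 4 weeks in the hypothalamus was 0.25 with the cage as block, 0.51 without cage 6, 0.41 with voom, and 0.20 over the 4 genes left with at least 10 counts in every library.

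Signs that turned belonged to differences that did not pass or, in the hypothalamus at 4 weeks, had no test. Without cage 6 they were those of Rasd2 in the hypothalamus at 3 h (0.0012), in the PFC over time (-0.066) and in the response difference (-0.00063), Pde10a in the PFC at 4 weeks (0.15) and between pools D and C (-0.18), and Rgs9 (-0.014) and Pde10a (-0.038) between pools B and A. With voom they were Rasd2 (0.0054) in the hypothalamus at 3 h, Adora2a (-0.41), Rgs9 (-0.26) and Rasd2 (-0.079) in the PFC at 3 h, Rgs9 (0.030) and Pde10a (0.11) in the PFC at 4 weeks, Rasd2 in the PFC over time (-0.054), and Adora2a (-0.030), Rgs9 (-0.10) and Rasd2 (-0.085) in the response difference. With cage means it was Pde10a between pools B and A (-0.049), and with no filter on low counts Rasd2 in the PFC at 3 h (-0.0024). Single removals gave -0.023 to 0.66 for Adora2a between regions, -0.099 to 0.0028 for Rasd2 in the hypothalamus at 3 h, and -0.50 to 0.74 for Adora2a, -0.21 to 0.48 for Rgs9 and -0.053 to 0.080 for Rasd2 in the PFC at 3 h. In the PFC at 4 weeks they gave -0.61 to 0.0083 for Ppp1r1b, -0.72 to 0.23 for Rgs9, -1.0 to 0.037 for Gpr6, -0.28 to 0.30 for Pde10a and -0.42 to 0.0084 for Rasd2, over time -0.075 to 0.47 for Ppp1r1b and -0.13 to 0.28 for Rasd2, and between pools B and A -0.021 to 0.20 for Pde10a. In the hypothalamus at 4 weeks single removals gave -0.039 to 1.45 for Adora2a and -0.11 to 0.40 for Gpr6. For Pde10a they gave -0.16 to 0.29 and for Rasd2 -0.067 to 0.048. The depth of the libraries limits the precision of Gpr6, which had as few as 2 counts.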
